A study of Homo sapiens with 10 samples.

Results

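The 10 genes described here encode writers and readers of histone marks: EZH2, EZH1, EED and SUZ12 of Polycomb repressive complex 2 (PRC2), BMI1 and CBX2 of Polycomb repressive complex 1 (PRC1), the MLL-type methyltransferases KMT2A and KMT2D, and the acetyltransferases CREBBP and EP300. They were chosen by symbol, and all 10 were found among the 20591 genes of the expression table, of which 16800 carry a symbol. Bulk RNA sequencing had been done on untreated wild-type human cells at day 0: 1 library each of the pure lines HL60 (promyelocytic leukaemia), K562 (erythroid, from a chronic myeloid leukaemia), SUDHL4 (a germinal-centre type of B cell lymphoma) and THP1 (monocytic leukaemia), and 1 library each of 6 mixtures of the 4 lines. All cells grew in RPMI with 10% serum. The ratios of the mixtures are not given in the sources used here, nor is which of the named library kits (a stranded kit for total RNA of low input, or a stranded mRNA kit) made which library. Every group holds 1 library, so the differences below have no replicate check and no test. Intervals are 95% intervals of the read counts and cover counting error only.

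PRC2 places methyl groups on lysine 27 of histone H3, a mark of silenced genes. EZH2 and EZH1 are its alternative catalytic subunits, EED binds the mark and stimulates the enzyme, and SUZ12 holds the core together. Canonical PRC1 binds that mark through a CBX protein and places ubiquitin on histone H2A, with BMI1 (also called PCGF4) as a partner of the RING ligase. The MLL family works in the opposite sense: KMT2A and KMT2D methylate lysine 4 of H3 at promoters and enhancers, and CREBBP and EP300 acetylate histones there. The group is well known in blood cancers. THP1 is known to carry a fusion of KMT2A with MLLT3, and SUDHL4 a mutation in the catalytic domain of EZH2. The table gives 1 value per gene, so fused, mutated and normal transcripts cannot be told apart in it.

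The libraries held between 24985570 and 36607612 reads, and the 10 genes between 172 reads (EZH1 in mixture 2) and 7747 reads (EZH2 in K562). Levels are normalised counts per 1000000 reads (CPM), as scaled between libraries by the authors. The marker genes fixed for K562 (6 of 6), SUDHL4 (5 of 5) and THP1 (5 of 5) were highest in the line of that name. For HL60 this held for MPO and CEBPE, while PRTN3, ELANE and CTSG were higher in THP1. Of 4 measured markers of other cells, only NKG7 passed 5 normalised CPM in a pure line, at 11.4 in HL60 and 44.9 in THP1.

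Differences of 2-fold were counted as at least 1 unit of log2(value + 1), with the higher value at 5 or more. Of the 10 genes, 6 spanned that much between their highest and lowest pure line (EZH2, EED, BMI1, CBX2, CREBBP and EP300). Over all 11717 genes at 5 or more in a pure line, 76.9% did so, and among the 7228 genes at 5 or more in all 4 lines 64.9% did, so the share was no higher than that of other genes. Over the 6 pairs of lines, 13 of the 60 comparisons (21.7%) passed, against 42.1% of the comparisons over all genes. K562 was a side of 10 of the 13 and the higher side of 8, against 52.1% and 28.4% of the 2-fold differences over all genes. It had the highest level of 5 genes (EZH2, EED, BMI1, CBX2 and KMT2A), and was the highest line for 30.2% of all genes. SUDHL4 had the highest level of EZH1, SUZ12, CREBBP and EP300 (24.3% of all genes), and HL60 that of KMT2D (24.8%). THP1 was highest for none of the 10, against 20.7% of all genes. It was lowest for 5 of the 10, and for 3497 of the 11717 genes. With scaling to housekeeping genes, THP1 and HL60 were each lowest for 4 of the 10.

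**Figure D1:**
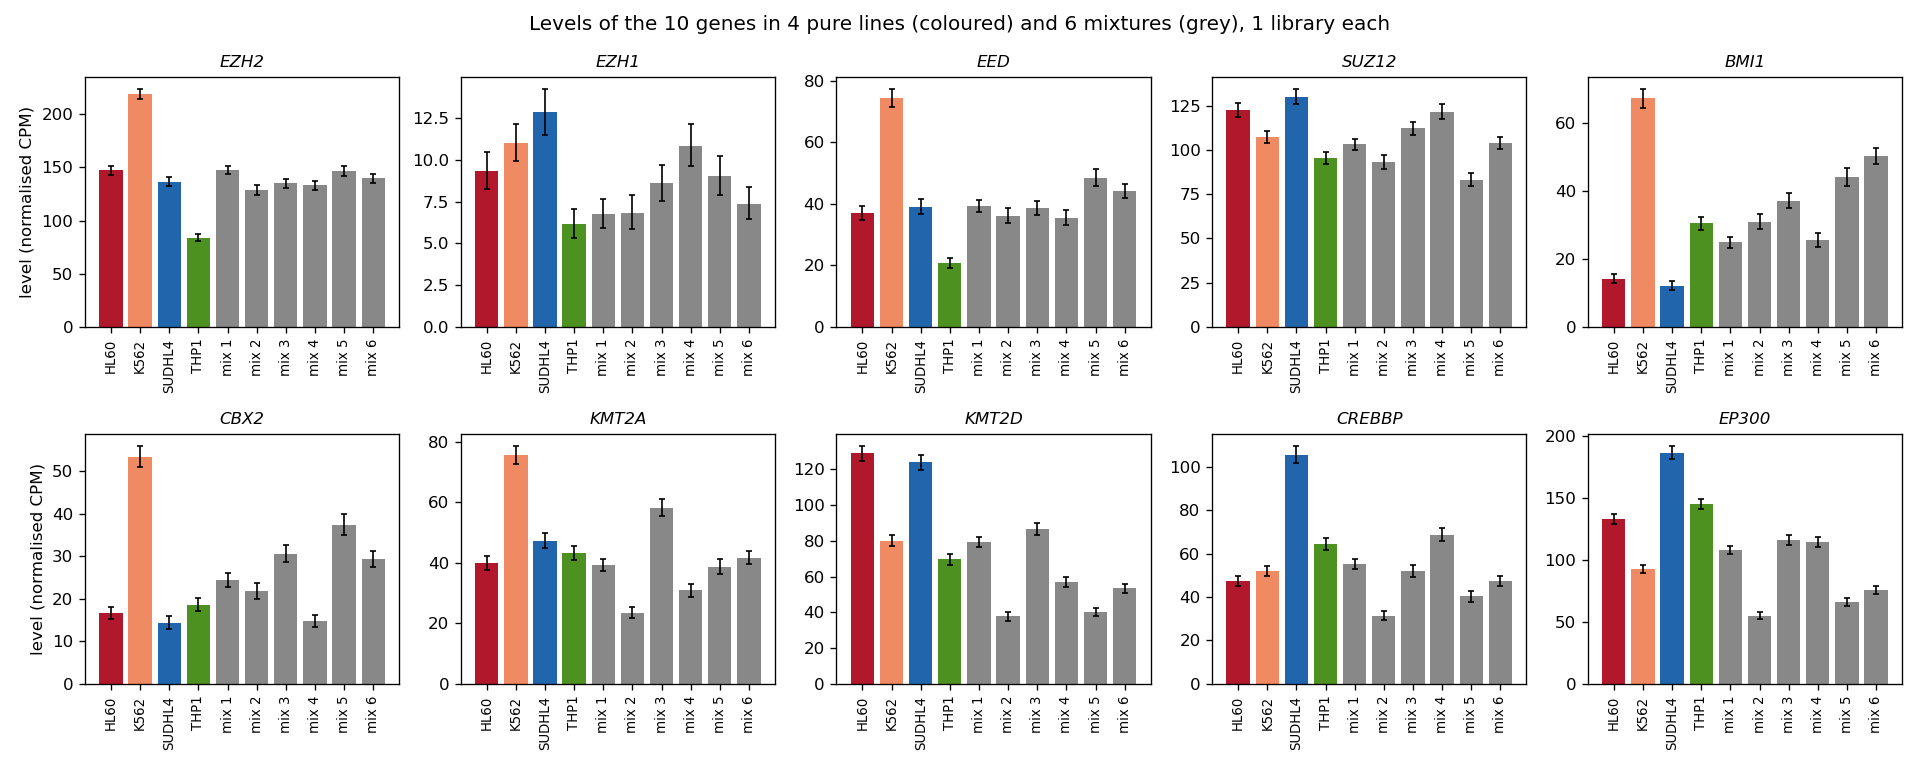
Level of each gene (normalised CPM, bars from 0) in the 4 pure lines (coloured) and the 6 mixtures (grey), 1 library each, with 95% Poisson intervals of the reads. EZH2, EED, BMI1, CBX2 and KMT2A peaked in K562, and KMT2D and EP300 in mixtures 2 and 5 lay below all 4 pure lines.

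EZH2 and EED shared their highest and their lowest line. EZH2 stood at 219 normalised CPM in K562, 147 in HL60, 137 in SUDHL4 and 83.9 in THP1. K562 was thus 2.61-fold above THP1 (2.50 to 2.73), with HL60 and SUDHL4 close to each other between them. That order of the middle pair turned when libraries were scaled to their total reads or to housekeeping genes. EED stood at 74.4 in K562, 39.0 in SUDHL4, 37.0 in HL60 and 20.6 in THP1. It spanned 3.60-fold (3.31 to 3.93), and the reads did not separate SUDHL4 from HL60. Its difference between K562 and HL60, 0.99 log2 units, passed the rule with both other scalings and with a pseudocount of 0.1. In the K562 and THP1 pair, 4 of the 10 genes (EZH2, EED, BMI1 and CBX2) were 2-fold higher in K562, against 25.6% of all genes tested.

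SUZ12 varied least. It stood at 130.0 in SUDHL4, 123 in HL60, 107 in K562 and 95.3 in THP1, a span of 1.36-fold (1.30 to 1.43). K562 and THP1 changed places under housekeeping scaling, where K562 was lowest. EZH1, the less abundant catalytic subunit, was low in every library. It stood at 12.8 in SUDHL4, 11.03 in K562, 9.34 in HL60 and 6.16 in THP1, a ratio of 2.08 (1.75 to 2.49) that fell short of the 2-fold rule on the log2(value + 1) scale at 0.95 and passed it with a pseudocount of 0.1. Among all 6 genes of the PRC2 core list, which adds the histone-binding RBBP4 and RBBP7, THP1 was the lowest line for 6 of 6, with a median of -0.85 log2 units against the mean of the other lines. It was the lowest line for 3497 of 11717 genes, with a median of -0.16. With housekeeping scaling, THP1 was lowest for 5 of the 6 and the median was -0.66. Of the 8 cell cycle genes of a fixed list, THP1 was lowest for 5, with a median of -0.76. Their part in the PRC2 levels was not tested. K562, the line with the most EZH2, was highest for CCNB1 (358) and CDK1 (248) of that list, and lowest for MCM2 (183) and E2F1 (15.7).

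The sequences before the starts of EZH2 and EED are shown because these genes had the same extreme lines. They are RefSeq sequences of the GRCh38.p14 build, 5′ to 3′ in the direction of the gene, and end at the base before the start. Capitals mark CCAAT boxes, searched on both strands as CCAAT or, on the other strand, ATTGG.
EZH2 upstream of its first listed start, chr7:148884292-148884541, minus strand: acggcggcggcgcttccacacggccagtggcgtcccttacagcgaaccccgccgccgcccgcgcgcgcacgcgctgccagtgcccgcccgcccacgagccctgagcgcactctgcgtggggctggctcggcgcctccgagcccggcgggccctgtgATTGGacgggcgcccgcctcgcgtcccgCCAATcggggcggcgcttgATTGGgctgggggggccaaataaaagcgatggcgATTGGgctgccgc
EED upstream of its first listed start, chr11:86244503-86244752, plus strand: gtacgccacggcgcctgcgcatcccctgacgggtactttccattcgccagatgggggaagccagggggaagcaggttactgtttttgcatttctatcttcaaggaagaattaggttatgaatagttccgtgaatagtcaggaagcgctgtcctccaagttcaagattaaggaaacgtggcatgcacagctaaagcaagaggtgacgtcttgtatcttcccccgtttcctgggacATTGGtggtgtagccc
EZH2 has 4 such matches, beginning 94, 66, 47 and 13 bases before this start, and none at its second listed start. EED has 1, beginning 16 bases before its start, and SUZ12, whose highest line was another, also has 1, beginning 31 bases before. At least 1 match was present in 34.6% of the 35116 promoter windows of 300 bases in the table, and 4 or more in 0.991%. A second search used 4 spellings of an E2F site (TTTGGCGC, TTTCGCGC, TTTCCCGC and TTTGCCGC, both strands), which 3.31% of the windows hold. Of the 9 genes with an entry, EZH2, EZH1 and SUZ12 hold 1 each, shown with capitals for the match (EZH1 holds it on the opposite strand).
EZH2 site, chr7:148884272-148884301, minus strand: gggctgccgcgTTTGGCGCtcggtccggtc
EZH1 site, chr17:42745137-42745166, minus strand: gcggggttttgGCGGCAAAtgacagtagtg
SUZ12 site, chr17:31936807-31936836, plus strand: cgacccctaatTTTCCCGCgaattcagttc
EED holds none of these letters in its window. CBX2 had no entry. A match is a run of letters and not a measured binding site.

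Both PRC1 genes were set apart by K562. BMI1 stood at 67.1 in K562, 30.4 in THP1, 14.1 in HL60 and 12.1 in SUDHL4. The span of 5.56-fold (4.96 to 6.27) was the widest of the 10 genes, and K562 passed 2-fold against each other line. THP1 in turn passed 2-fold against HL60 and SUDHL4, where BMI1 was the only one of the 10 genes to do so and where 18.7% and 23.8% of all genes did. With housekeeping scaling, the difference between K562 and THP1 was 0.94 and no longer passed, and HL60 and SUDHL4 changed places. In the GENCODE annotation, 23.3% of the exon bases of BMI1 also belong to the read-through gene COMMD3-BMI1, which was not analysed here, so its level depends on how such reads had been assigned.

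CBX2, a chromodomain subunit of canonical PRC1, stood at 53.4 in K562, 18.6 in THP1, 16.6 in HL60 and 14.4 in SUDHL4. K562 was above the other 3 lines by more than 2-fold, up to 3.71-fold (3.33 to 4.16), and the reads did not separate THP1 from HL60. In K562 against HL60, and in K562 against SUDHL4, BMI1 and CBX2 were the 2 genes of the 10 that passed, where 21.3% and 23.9% of all genes did.

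The K562 library, which held the peaks of EZH2, EED, BMI1, CBX2 and KMT2A, was also high for another list. Of 7 histone, small nuclear or nuclear-retained RNA genes measured at 5 or more, 5 exceeded the other lines' mean 2-fold in the K562 library (19.7% of all genes). The linker histone gene H1-2 stood at 1008 there and at 11.1 or less in the other lines, and the core histone gene H2AC6 at 169 and at 1.36 or less. H2BC4 stood at 20.1 in K562 and at 1.67 or less in the other lines. The next highest line was closer for NEAT1 (20.4, against 8.16 in HL60) and for MALAT1 (88.4, against 60.4 in SUDHL4). The other 2 of the 7 were not raised in K562, where both had their lowest level. RN7SK stood at 14.9 there, next to 15.1 in THP1 (a ratio of 1.01), and at up to 56.0 in the other lines. RMRP stood at 1.99 in K562 and at 2.73 to 9.82 in the other lines. Replication-dependent histone mRNA mostly carries no poly(A) tail. Other histone genes, below 5 in every line, were mixed. H1-4 (1.85) and H4C3 (1.93) in K562 stood near their levels in SUDHL4 (2.26 and 1.82). H1-3 stood at 1.17 in K562 and at 0.199 or less in the other lines. The part of these differences in the K562 levels of the 10 genes was not tested.

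KMT2A, the gene that is rearranged in many leukaemias, stood at 75.7 in K562, 47.4 in SUDHL4, 43.3 in THP1 and 40.1 in HL60. Its 3 lower lines lay within a narrow range, and the reads did not separate THP1 from HL60. The ratio of K562 to HL60 was 1.89 (1.76 to 2.02) and passed 2-fold with both other scalings, at 2.14 with each. KMT2D, the enhancer methyltransferase that is often mutated in lymphoma, stood at 129 in HL60, 124 in SUDHL4, 80.0 in K562 and 69.5 in THP1. HL60 and SUDHL4 formed a high pair, which the reads did not separate and which changed order with both other scalings, above K562 and THP1. The full span was 1.85-fold (1.76 to 1.95).

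The acetyltransferase genes were highest in the B cell line. CREBBP stood at 105.6 in SUDHL4, 64.3 in THP1, 52.1 in K562 and 47.4 in HL60. SUDHL4 was 2.23-fold above HL60 (2.09 to 2.38), where CREBBP was the only one of the 10 genes to pass and 17.9% of all genes did. EP300, its close relative, stood at 187 in SUDHL4, 145 in THP1, 133 in HL60 and 92.3 in K562, a span of 2.02-fold (1.93 to 2.11). Both genes passed 2-fold in SUDHL4 against K562 (18.6% of all genes). Both lay near the threshold there, at 1.01 log2 units, and neither passed with scaling to total reads, at 0.97 for CREBBP and 0.98 for EP300.

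Related genes were compared within a library as levels per kilobase of annotated exon. EZH2 exceeded EZH1 in every library: by 30.7-fold in K562 (27.7 to 34.1), 24.4-fold in HL60, 21.1-fold in THP1 and 16.5-fold in SUDHL4 (14.8 to 18.4). Among the pure lines the ratio was thus highest where EZH2 peaked and lowest where EZH1 peaked. In the mixtures it ran from 19.0 to 33.8. The value of 33.8 (29.8 to 38.6), in mixture 1, lay above the ratios of all pure lines. EZH1 stood there at 72.7% of the level predicted from the pure lines, as described below. EP300 exceeded CREBBP by 3.47-fold in HL60, 2.80-fold in THP1, 2.20-fold in K562 and 2.19-fold in SUDHL4. KMT2D exceeded KMT2A by 4.91-fold in HL60, 4.00-fold in SUDHL4, 2.46-fold in THP1 and 1.62-fold in K562. These last ratios rest on the length used: per kilobase of the longest coding transcript they were 2.75, 2.24, 1.38 and 0.905, so the direction in K562 turned.

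CBX2 was compared with CBX6, CBX7 and CBX8, canonical CBX genes whose products compete for the same place in PRC1. K562 was the one pure line where CBX2 exceeded CBX6: the ratio was 1.80 there and between 0.171 (THP1) and 0.275 (HL60) in the other lines. CBX8 was below CBX2 in K562 (4.31), THP1 (1.73) and HL60 (1.41), and above it in SUDHL4 (0.763). CBX7 was low throughout: CBX2 exceeded it by 22.0-fold in HL60, 26.8-fold in K562 and 33.1-fold in SUDHL4, but by 2.40-fold in THP1, where CBX7 had its highest level.

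**Figure D2:**
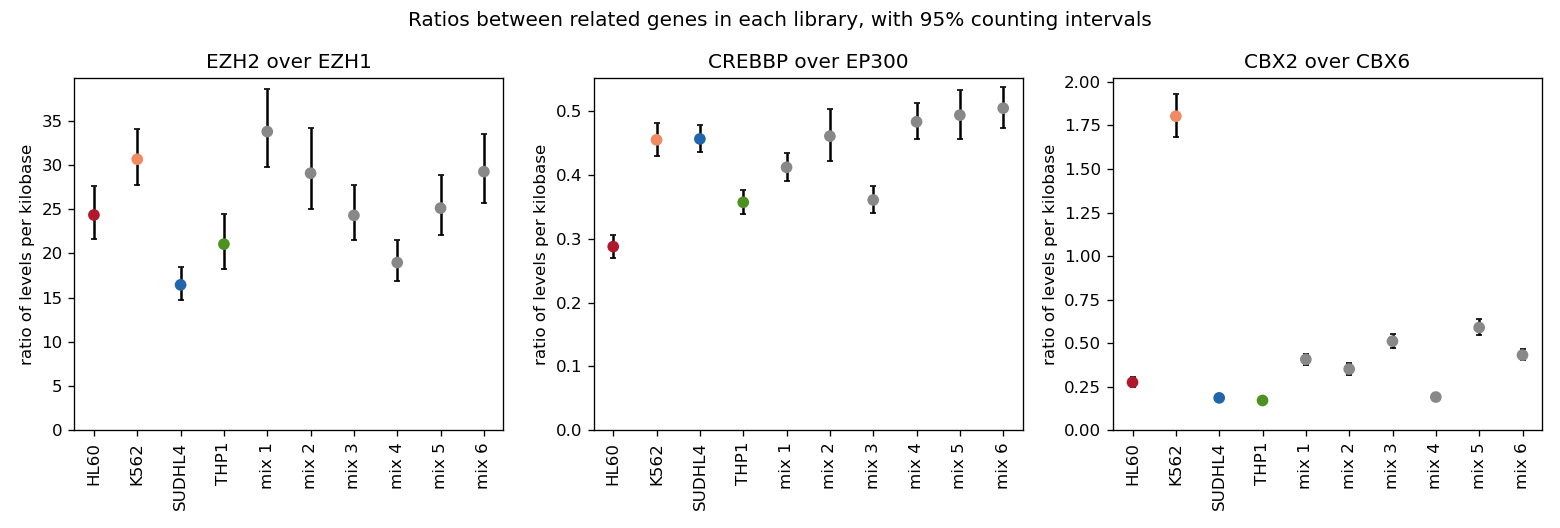
Ratio of levels per kilobase of exon (linear axes from 0) for EZH2 over EZH1, CREBBP over EP300 and CBX2 over CBX6 in each library, with 95% counting intervals. EZH2 over EZH1 ran from 16.5 to 33.8, CREBBP stayed below EP300 in all 10 libraries, and CBX2 exceeded CBX6 in K562 alone.

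The wider complexes were described with 85 partner genes from fixed lists, of which 79 were measured at 5 or more in a pure line. KMT2B, PCGF2, EPOP, EZHIP and PAGR1 were not analysed here. A line stood 2-fold above the next highest or below the next lowest for 25 of the 79 (31.6%), against 43% of all genes, so these complexes did not vary more between lines than other genes. K562 stood above for 5 (9.22% of all genes), SUDHL4 for 3 (7.5%), THP1 for 3 (8.44%) and HL60 for 1 (3.35%). THP1 stood below for 6 (4.75% of all genes), HL60 for 5 (3.12%), SUDHL4 for 4 (6.95%) and K562 for 1 (5.59%). These counts are given with the authors' scaling only.

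In K562 the PRC2 accessory gene PHF19, which helps recruit PRC2 to chromatin, reached 448 against 151 in HL60. ASH2L, a subunit shared by all MLL-type complexes, stood at 246 in K562, 119 in THP1, 98.8 in SUDHL4 and 34.0 in HL60, so it was also 2-fold below the next line in HL60. E2F6 (47.3) and BCORL1 (68.1), of variant PRC1, and MLLT10 (44.3), a fusion partner of KMT2A, were the other 3 genes that stood above in K562. The RING ligases of PRC1 did not stand apart by this rule: RING1 ran from 30.6 in SUDHL4 to 55.1 in THP1, and RNF2, highest in K562 at 56.5, was next highest in HL60 at 30.2.

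In SUDHL4 the gene PHC1 (38.5), a scaffold of canonical PRC1, YAF2 (52.6) and AUTS2 (64.8, against 0.553 in HL60) stood above. Against these, KDM5B, a demethylase of H3 lysine 4, stood at 1.23 in SUDHL4 and at 69.0, 133 and 232 in THP1, HL60 and K562. JARID2, which guides PRC2, stood at 4.50 in SUDHL4 and 29.3 in THP1. AFF1 (4.39) and BCORL1 (8.72) were the other genes that stood below in SUDHL4.

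With the authors' scaling, THP1 held the most genes that stood below, 6 (4.75% of all genes), followed by HL60 with 5 (3.12%). That order rests on the scaling used. Housekeeping scaling raised THP1 by 0.18 log2 units and lowered HL60 by 0.18, and RBBP4 and KDM6B were only 2.21-fold and 2.31-fold below the next line. KDM6A, a demethylase of H3 lysine 27 and a subunit of the KMT2C and KMT2D complexes, had 0 reads in THP1, against 22.4 normalised CPM in HL60, 37.4 in K562 and 23.0 in SUDHL4. With 3 reads taken as the limit for a library with 0, it was at least 209-fold lower in THP1 than in HL60. In the 6 mixtures it was present, from 12.8 to 18.2. KDM6B, the related demethylase, was also lowest in THP1 (4.48, against 10.3 in K562). RBBP4 (100.2 against 222 in SUDHL4), PCGF5 (10.3), SCML2 (6.80) and KAT6B (9.95) were the others. Of the 6 demethylase genes of the list, 4 were 2-fold below the mean of the other lines in THP1 (KDM6A, KDM6B, KDM1A and KDM5A), where 18% of all genes were. The count was 3 of 6 with scaling to total reads and 2 of 6 with housekeeping scaling. Standing above in THP1 were SCMH1 (214), ASH1L (85.5) and CBX7 (10.2).

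In HL60 the CpG-binding subunit gene CXXC1 stood above, at 186 against 77.5 in THP1. PHC1 (1.32), KAT2B (4.34), KAT6A (50.3) and AFF4 (11.1) stood below, beside ASH2L. In K562 the one gene that stood below was CBX6 (41.8). MEN1, the adaptor of KMT2A, was even over the lines, from 45.4 to 64.8. KMT2C ran from 43.1 in THP1 to 112 in SUDHL4, BAP1 from 64.6 in K562 to 142 in HL60, and ASXL1 from 80.4 in THP1 to 130.3 in SUDHL4. DOT1L, the H3 lysine 79 methyltransferase, was highest in HL60 (148) and lowest in SUDHL4 (54.8). MLLT3, the fusion partner in THP1, stood at 11.5 in HL60, 7.04 in THP1, 0.155 in K562 and 0.0551 in SUDHL4.

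**Figure D3:**
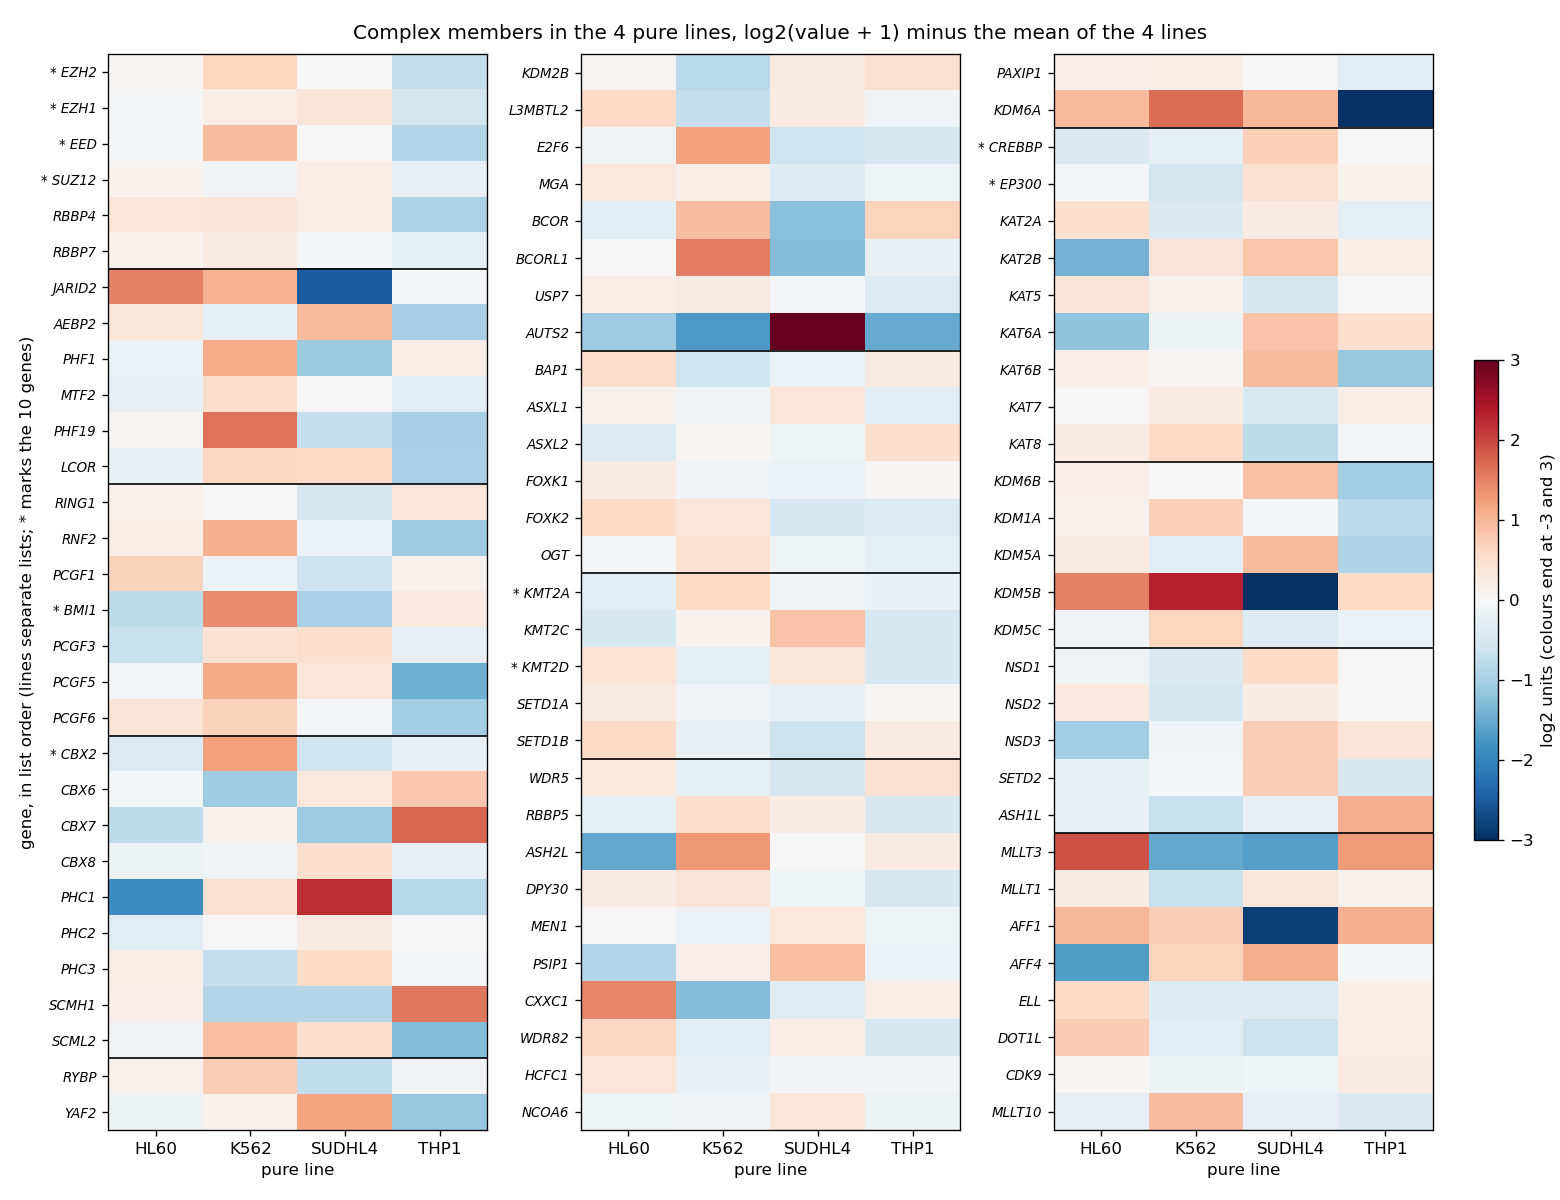
Each cell is log2(value + 1) of a gene in a pure line minus the mean of the 4 lines, in log2 units, for partner genes at 5 or more and the 10 genes (marked *), in list order. KDM6A in THP1, at 0 reads, and KDM5B, JARID2 and AFF1 in SUDHL4 are the dark blue cells, and PHF19 is red in K562.

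Known targets of KMT2A fusions differed between the lines. HOXA9 stood at 19.8 in THP1 and at 0 reads in the other 3 lines. HOXA10 stood at 44.2 in THP1, 1.79 in HL60 and 0 reads in K562 and SUDHL4. PBX3, a cofactor of HOX proteins, stood at 107 in THP1, 30.6 in SUDHL4, 3.77 in HL60 and 1.74 in K562. Not all targets followed that order: MEF2C was highest in SUDHL4 (252, against 107 in THP1), and HOXA7 was highest in SUDHL4 (14.96). MEIS1 had 0 reads in THP1 and HL60 and reached at most 1.34, in K562. The level of KMT2A itself in THP1 (43.3) was within the range of the other lines.

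For the 6 genes that spanned 2-fold, the closest genes in shape over the 4 pure lines were found among 10198 genes, by the root mean square difference in log2 units after centring. Closest to EZH2 were WDR48, TIMM22 and RBM27 (0.033 to 0.041), and to EED they were ORC4, COPG2 and USP54 (0.029 to 0.056). BMI1 had ARRDC4, AMMECR1 and NEDD4 (0.11 to 0.13), CBX2 had ZNF436, PRDX6 and SERPINB1, and CREBBP had SNX30, ERICH1 and ANKFY1. EP300 had CMTM6 (0.033), followed by 2 genes with no symbol in the table. With 4 points, a close shape is easily met.

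The mixtures allow a second look, because a mixture should lie between the pure lines. Coefficients for the 4 lines were fitted in each mixture from 100 signature genes per line. The share of a line is its part of their sum. Each gene was predicted from its pure levels and these coefficients, which were not rescaled. The coefficients summed to 0.908 in mixture 3 and to between 0.951 and 0.977 in the other mixtures. HL60, K562, SUDHL4 and THP1 made up 26.0%, 22.8%, 22.4% and 28.8% of mixture 1. Mixture 2 was 48.6% HL60, mixture 4 was 58.3% SUDHL4, and K562 made up 53.6% of mixture 5 and 53.1% of mixture 6. Mixture 3 had an estimated share of 0% for SUDHL4 and 39.5% for K562.

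The PRC2 and PRC1 genes largely followed their predictions. EZH2 stood at 148, 129, 135, 133, 147 and 139.7 normalised CPM in mixtures 1 to 6, between 86.2% and 114% of the prediction. EED stood at 39.2, 36.1, 38.5, 35.5, 48.5 and 44.0, between 86.0% and 111%. CBX2 stood at 24.4, 21.8, 30.5, 14.7, 37.4 and 29.3, lowest in mixture 4, where K562 had next to no share, and between 82.7% and 106% of the prediction. BMI1 stood at 24.8, 30.8, 37.1, 25.4, 43.9 and 50.1. In mixture 4 it was at 147% of its prediction (136% to 158%), the 1 value of the 60 at least 0.5 log2 units above. SUZ12 lay between 83.2 (mixture 5) and 121 (mixture 4), and it was below all pure lines in mixtures 2 and 5. EZH1 ran from 6.75 to 10.9, between 72.7% and 108% of the prediction.

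The MLL-type and acetyltransferase genes fell below their predictions in several mixtures. KMT2D stood at 79.1, 37.7, 86.5, 57.0, 40.1 and 53.4 in mixtures 1 to 6, which is 82.1%, 38.1%, 107%, 55.1%, 50.2% and 63.9% of its prediction. Its values in mixtures 2, 4, 5 and 6 lay below the lowest pure line, THP1 at 69.5. EP300 stood at 108, 55.0, 116, 115, 65.8 and 75.6, or 80.2%, 44.1%, 106%, 70.8%, 55.3% and 64.1%. KMT2A stood at 39.2, 23.6, 58.3, 30.9, 38.8 and 41.8, at 51.0% of its prediction in mixture 2 and 116% in mixture 3. CREBBP stood at 55.2, 31.4, 51.9, 68.7, 40.3 and 47.3, at 58.6% in mixture 2 and 104% in mixture 3. All 4 genes were thus above prediction in mixture 3 and below it in the other 5 mixtures. In mixture 3 the coefficients summed to 0.908, so predictions from the shares themselves would be higher there. That all 4 were above prediction in mixture 3 thus rests on using the coefficients as fitted.

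Counted over the 60 values, 2 were 2-fold below the prediction (KMT2D and EP300 in mixture 2; 0.216% of values over all genes and mixtures) and 0 were 2-fold above (0.226%). At 0.5 log2 units, 11 were below (3.35%) and 1 above (3.02%). All 11 were of these 4 genes, 8 of them in mixtures 2 and 5, where 9.7% and 6.09% of all genes were that far below. Without those 2 mixtures, 3 of 40 values were 0.5 log2 units below and 0 were 2-fold off. Of the 60 values, 44 lay inside the range of the pure lines, 16 below it (3.79% over all genes) and 0 above it (2.99%). SUZ12 gave 2 of the 16, and these 4 genes the other 14.

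**Figure D4:**
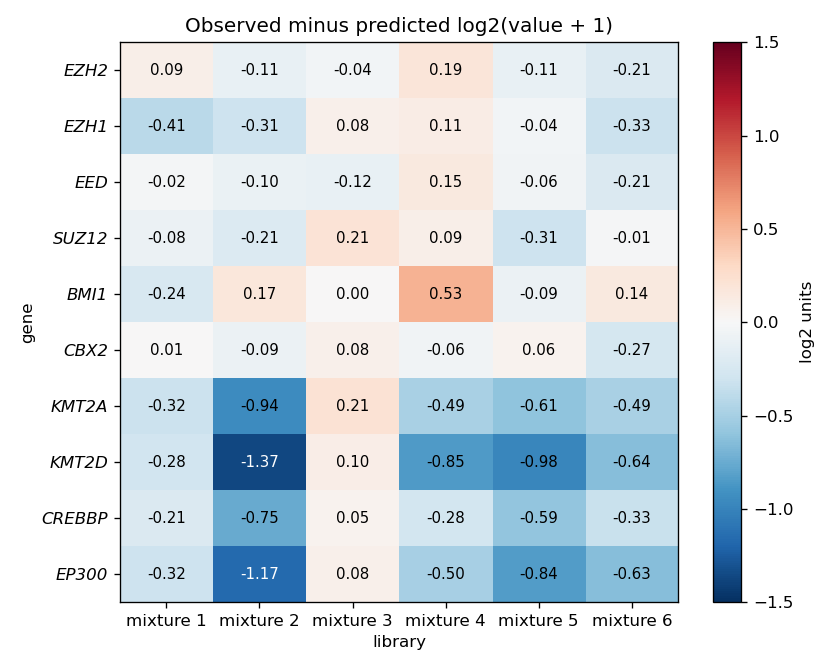
Observed minus predicted log2(value + 1) of each gene in each mixture, in log2 units (blue, below the prediction). The lowest value is KMT2D in mixture 2 at -1.37, and all 4 genes in the lower rows (KMT2A, KMT2D, CREBBP and EP300) are above 0 in mixture 3 only. Predictions use the coefficients as fitted, which sum to 0.908 in mixture 3.

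These 4 genes are also the ones with the longest transcripts. The longest coding transcript is 16.6 kb for KMT2A, 19.4 kb for KMT2D, 10.8 kb for CREBBP and 9.59 kb for EP300, against 2.22 to 4.64 kb for the other 6. Over all genes with a known length (9479 to 9924 per mixture), the departure from prediction moved with length. Spearman's rho between transcript length and observed minus predicted level was -0.44, -0.65, -0.33, -0.57 and -0.45 in mixtures 1, 2, 4, 5 and 6, and 0.42 in mixture 3. These are descriptions across genes, which share a library and are not independent.

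In mixture 2, transcripts under 1 kb had a median of 0.46 log2 units above prediction. Those of 8 to 12 kb had a median of -0.41 and those of 12 kb or more -0.45, and 47.4% of the latter were at least 0.5 log2 units below. The 4 genes had a median of -1.06 in that mixture, and the 6 shorter ones -0.11. KMT2D, at -1.37, was lower than all but 1.05% of the 190 genes of its length class, and EP300, at -1.17, than all but 1.89% of 635. KMT2A (12.6% of its class lower) and CREBBP (15.6%) were less far out. In mixture 3, where the relation had the opposite sign, the median of the class of 12 kb or more was 0.13, KMT2A was at 0.21 and KMT2D at 0.10.

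The partner genes showed the same split. In mixture 2, of 21 partners with transcripts of 8 kb or more, 20 were below prediction and 13 by at least 0.5 log2 units, with a median of -0.63. Of 56 shorter partners, 5 were that far below, with a median of -0.11. The acetyltransferase gene KAT6A (-1.21), ASH1L (-1.11), the H3 lysine 36 methyltransferase gene NSD1 (-1.07) and KMT2C (-0.91) were among the long partners, named after their values were seen. FOXK1 went the other way, at 0.89 above in mixture 6. In mixture 3, 2 of the 21 long partners were below prediction with the coefficients as fitted.

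RNA that carries no poly(A) tail also differed between libraries. RN7SK, a small nuclear RNA, stood at 122 in mixture 3, against 14.9 to 56.0 in the pure lines. It stood at 41.0 in mixture 5 and 38.6 in mixture 2, and at 13.7, 12.6 and 9.29 in mixtures 4, 6 and 1. RMRP stood at 31.1 in mixture 3 and 11.3 in mixture 5, against 1.99 to 9.82 in the pure lines. Among the mixtures, RN7SK was highest in mixture 3, followed by mixtures 5 and 2, where the relation with length had the opposite sign. Among the pure lines, RN7SK and RMRP were both highest in SUDHL4, at 56.0 and 9.82. The part of library kit, RNA quality and transcript length in the levels of KMT2A, KMT2D, CREBBP and EP300 was not tested, and a library's kit cannot be told apart from its mixture here. In bulk RNA, moreover, fewer cells of a line and less RNA per cell cannot be told apart.

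**Figure D5:**
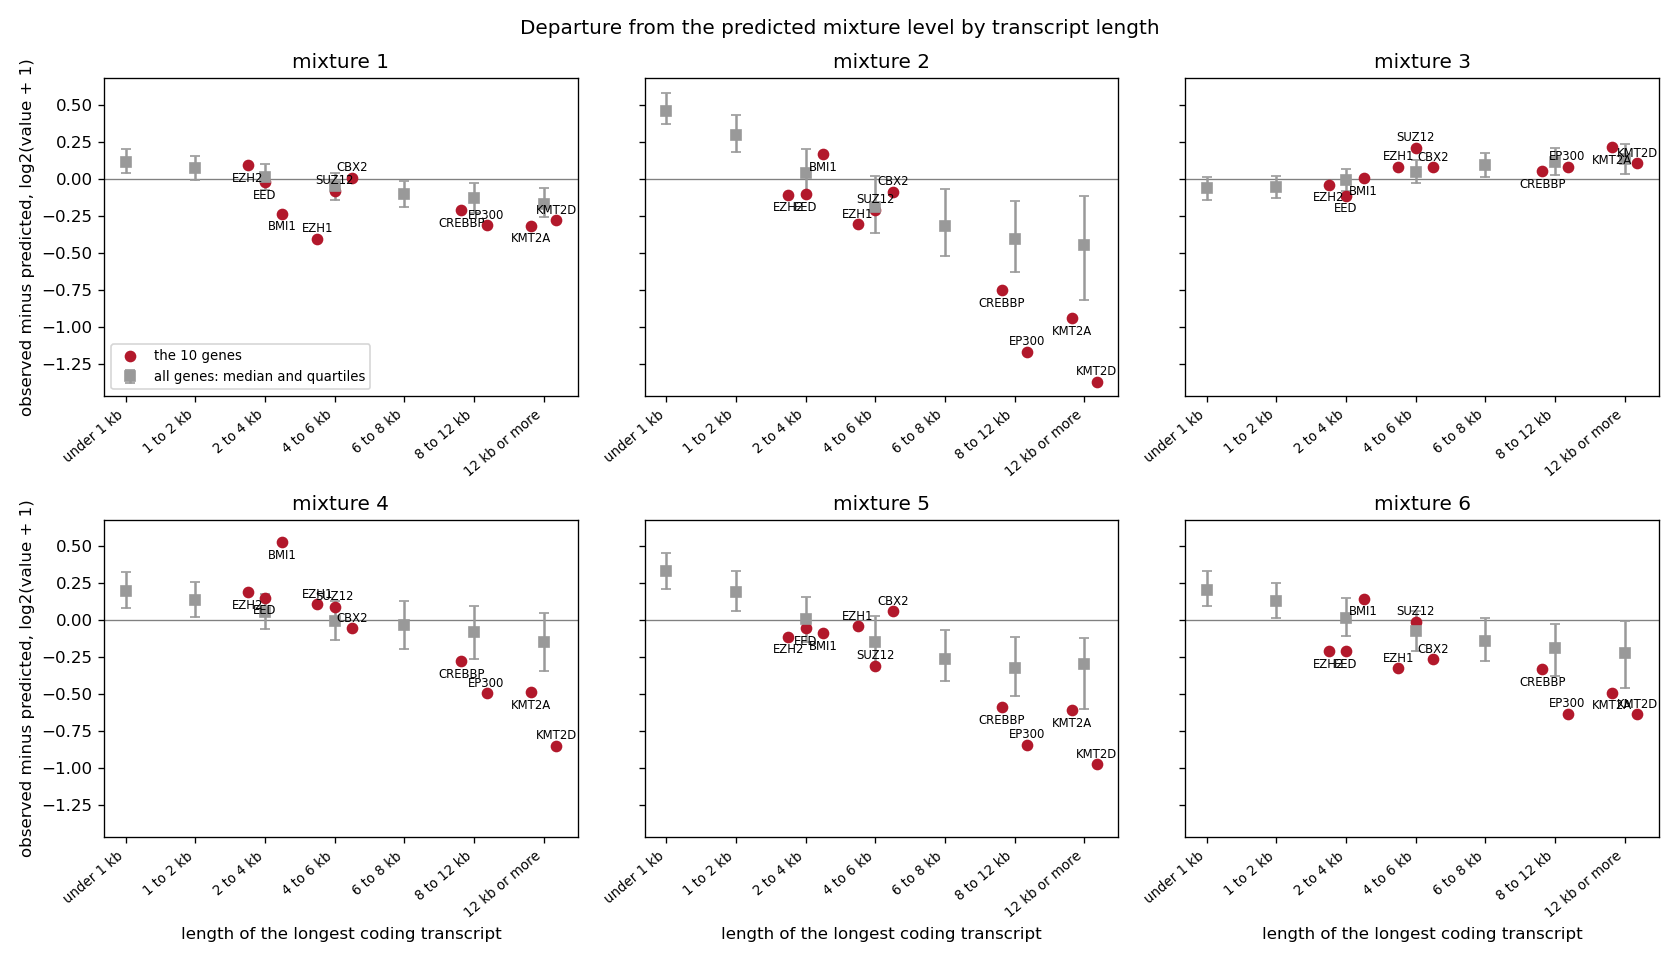
Observed minus predicted log2(value + 1) by length of the longest coding transcript in each mixture: grey squares and bars are the median and quartiles of all genes in a length class, red points the 10 genes. In mixture 2 the grey medians fall from 0.46 under 1 kb to -0.45 at 12 kb or more, with KMT2D at -1.37, while in mixture 3 they rise to 0.13.

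The 10 genes lie on separate stretches of the genome (GENCODE 29, GRCh38; the authors' build was hg19). EZH2 (ENSG00000106462) lies on chromosome 7 from 148807383 to 148884321, EED on chromosome 11 from 86244544 to 86278813, and BMI1 on chromosome 10 from 22321211 to 22331484. KMT2A lies on chromosome 11 from 118436464 to 118526832, KMT2D on chromosome 12 from 49018975 to 49059774, CREBBP on chromosome 16 from 3725054 to 3880726 and EP300 on chromosome 22 from 41091786 to 41180079. SUZ12, EZH1 and CBX2 all lie on chromosome 17, starting at 31937018, 42700275 and 79778132. An annotated gene on the same strand, not analysed here, shares 17.9% of the exon bases of KMT2A.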

How the data were processed

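Expression was measured by bulk RNA sequencing in 10 libraries, 1 per group, assigned by their titles. Per the submitters' processing notes, HISAT2, featureCounts, Cell Ranger ARC 2.0.0 and build hg19 were used; for annotation, settings and scaling the sources used here give nothing. A table of signal values on a CPM scale was deposited by the authors, rescaled between libraries. Values above 0 equal recovered reads plus 0.5, times a step of the column (100% of values came out whole, tolerance 0.01). Intervals are exact 95% Poisson intervals for levels and Clopper-Pearson intervals for ratios.

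Differences are on the log2(value + 1) scale, which understates those of low genes. Signature genes were the 100 per line with the largest margin among genes at 5 or more and 2 log2 units above every other line, without any listed gene; shares came from non-negative least squares (scipy 1.17.1) and are shares of RNA. The steps were tested on simulated mixtures, made as sums of the pure profiles with counting noise and no length effect. That test cannot tell how well the prediction holds for the real mixtures, whose departures moved with length. Lengths and positions came from GENCODE 29, promoters from RefSeq, which held 9 of the 10 genes. Alternatives were other scalings (total reads, 28 housekeeping genes), a pseudocount of 0.1, no minimum level, and other signature genes. Named besides the 10 genes are partner genes 2-fold above or below the next line, a fixed set of partners, and the 3 closest genes in shape. The 10 genes and the lists were chosen with earlier results of these data known. The values of 1 partner gene are not reported here.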

Additional observations from a re-analysis of the deposited data

How the results depend on the processing

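The counts of genes spanning 2-fold (6) and of 2-fold differences between lines (13) stayed within 1.5 times with both other scalings, the pseudocount of 0.1 and no minimum level. The count of values inside the pure range (44) did so with both other scalings, and the count of values 2-fold off the predicted mixture (2) with all of these and with the other signature genes. With mixtures 2 and 5 left out, an alternative chosen after seeing the data, 0 values were 2-fold off the prediction and 4 were 0.5 log2 units off, because both 2-fold values are in mixture 2. Restricting the signature to 202 genes with transcripts of 2 to 6 kb, also chosen after seeing the data, left 2 values 2-fold off and 12 at 0.5 log2 units, and 50 signature genes per line gave 3 and 14. Scaled to total reads, 11 of the 13 differences were kept with the same sign, and with housekeeping genes 12 were; of the 60 signs, 2 and 5 turned, and no called difference changed sign. Housekeeping scaling moved HL60 by -0.18 and THP1 by 0.18 log2 units, so the median of the 10 genes in THP1 went from -0.32 to -0.12. No paired analysis was possible because every group holds 1 library, and for the same reason no library could be left out of a group. The depth of 172 reads or more per gene limits EZH1 most.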
